A study of Arabidopsis thaliana with 15 samples.

Results

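The transcriptome of *Arabidopsis* leaf 6 after GSH on leaf 1 was compared directly with that after Glu on leaf 1, to ask which functions lean to either compound when both are applied at the same dose and for the same time. The comparison used 6 of the 15 libraries of the series, 3 from GSH-treated and 3 from Glu-treated plants, chosen by their labels and not by any measured value. GSH plants were WT plants of the Col-0 strain that received 100 mM GSH on leaf 1, and leaf 6 was collected 1 h later. Glu plants were Col-0 plants that received 100 mM Glu on leaf 1 and were sampled in the same leaf at the same time. By the study's methods both compounds were dissolved in the same growth medium and placed on the cut edge of leaf 1 after a recovery period from the cutting. Mock libraries came from leaf 6 of Col-0 plants without a small molecule. Wounding libraries came from leaf 6 of WT plants 1 h after wounding of leaf 1, and wounding mock libraries from leaf 6 of WT plants before wounding. These 3 groups are given beside the results as background and entered no test outside the alternative fits. By the study's account the mock plants were not stimulated. An effect shared by both solutions therefore cannot be told apart from the compounds in a comparison with mock. The labels do not say whether replicates were separate plants or pools, so p-values measure only the spread between these libraries.

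Glutathione (GSH) is a tripeptide of glutamate, cysteine and glycine that plants use as a redox buffer, and free glutamate (Glu) is one of its building blocks. Both have been applied to leaves to imitate wound signals, which travel through the vasculature with a calcium wave that depends on glutamate receptor-like (GLR) channels. In the leaf that receives the signal, jasmonic acid (JA) is made and converted to its active isoleucine conjugate, JAZ repressor proteins are degraded, and transcription factors such as MYC2 switch on defense genes. The *JAZ* genes and the enzymes that inactivate JA are themselves among the early targets, which makes their transcripts a common readout of the signal.

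Expression was given as FPKM, a fragment count scaled to transcript length and library size, and 16953 of 32833 genes were tested because 3 or more of these libraries held them at 1 FPKM or above. The libraries resembled each other closely across these genes, with correlations of log2(FPKM + 1) of 0.976 to 0.988 among GSH libraries, 0.981 to 0.989 among Glu libraries and 0.977 to 0.988 between the groups. Mesophyll markers were abundant, with a summed level of 4 markers of 13463 to 14664 FPKM in GSH and 11052 to 14843 FPKM in Glu libraries. The meristem genes *STM*, *WUS* and *CLV3* were listed at 0 in all 6. Of 3 root markers, the iron transporter *IRT1* was also at 0 and *NRT2.1* was under 1 FPKM in all 6. The third, *PYK10*, made up most of their sum, which was 44.4 to 62.2 FPKM in GSH and 39.8 to 45.7 FPKM in Glu libraries. The summed levels of the 10 marker lists gave exact two-sided permutation p-values of 0.20 to 1.00 between the groups, where 0.1 is the smallest that 3 against 3 allows. For the meristem list, at 0 throughout, the p of 1.00 was fixed in advance. The flower markers were under 1 FPKM in all 6 libraries, so their sums could show little. In a whole leaf, fewer cells of a type and less RNA per cell cannot be told apart.

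GSH replicate 1 stood apart from the other libraries. In 24 genes it lay more than 1 log2 unit above, and in 34 genes more than 1 log2 unit below, all 5 other libraries, whereas for each of the others the same counts were at most 5 and 10. It had the highest iron deficiency transcripts and the lowest heat shock transcripts of the 6 libraries. Values without this library are given beside the results whose call it changes.

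Across all genes the difference between the compounds was small. DEGs, which had to pass an adjusted p of 0.05 and differ by more than 1 log2 unit, numbered 11, or 0.0649% of genes tested. Of these, 5 were higher in GSH (0.0295%) and 6 were lower (0.0354%). Another 3 genes passed the adjusted p with a smaller change, giving 14 called genes (0.0826%), 7 in each direction (0.0413% each). Before adjustment 1487 genes (8.77%) had a p under 0.05, of which 1088 genes had higher values in GSH (6.42%) and 399 had lower values (2.35%). The groups did not overlap in 1870 genes that were higher in GSH (11%) and in 603 that were lower (3.56%). Over all genes the log2 fold change had a median of 0.05, with 64.2% above and 35.8% below 0. After rescaling by the median of ratios the median was -0.001, 49.8% lay above 0, and 6 of 16 called genes were higher in GSH (37.5%, against 50.0% without rescaling). Without GSH replicate 1 the number of called genes was 105, 59 higher and 46 lower in GSH, and all 14 were among them, while without Glu replicate 1 only 2 were called. Of the 14 genes, 11 passed in 1 to 3 of the 6 fits that left out 1 library each, *JAZ10*, *ACL* and *AT1G07887* in 1, and the exceptions were *AT1G75945*, *PP2-A10* and *AT2G05995*, which passed in 5 or 6. In these 3 genes 1 group was under 1 FPKM in all its libraries, so each entered the test only through the group where it was high.

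**Figure D1:**
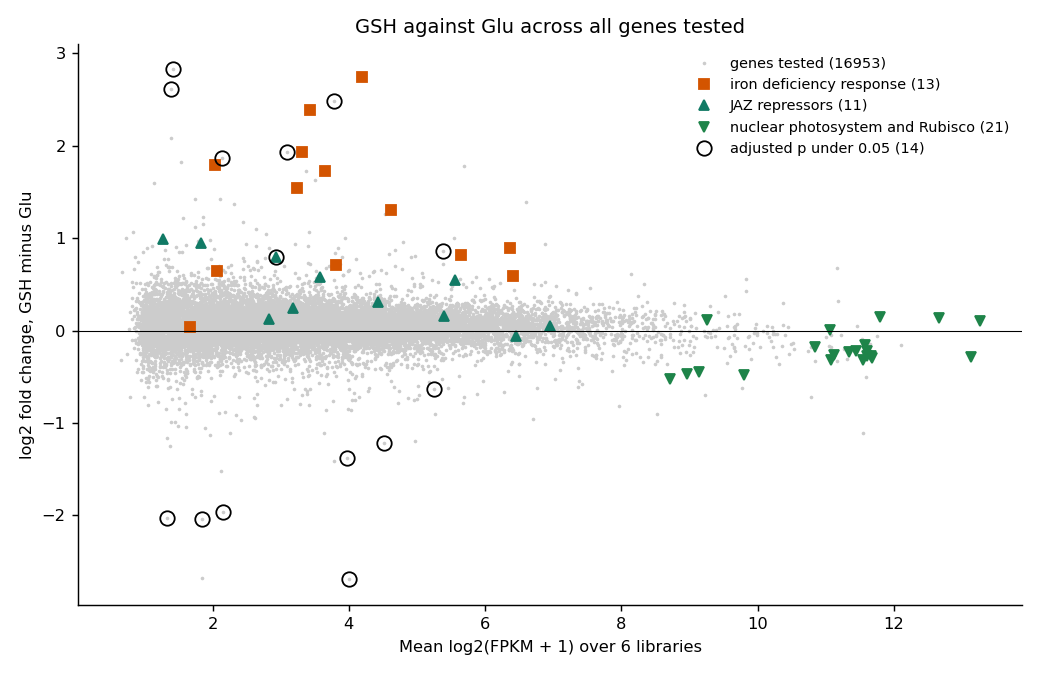
Each point is 1 of 16953 genes, with its mean log2(FPKM + 1) over the 6 libraries on the x axis and the log2 fold change, GSH minus Glu, on the y axis. The 14 circled genes passed an adjusted p of 0.05, all 13 iron deficiency genes (squares) lay above 0, and most photosystem genes (triangles pointing down) lay below it.

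Among the genes that rose with GSH relative to Glu were a chitinase, a cell wall invertase and a lipid transfer protein, which act outside the cell. The chitinase family gene *AT2G43620* (chromosome 2, 18093694 to 18095093, minus strand, TAIR10.1) had 22.0, 50.3 and 28.1 FPKM in GSH, against 4.77, 6.56 and 3.52 FPKM in Glu and 0.179 to 0.745 FPKM in mock libraries. Its mean was 6.76 times that in Glu, with a log2 fold change of 2.48 ± 0.29 (SE) and an adjusted p of 0.027. *ATBFRUCT1* (*AT3G13790*), a cell wall invertase that splits sucrose, had 11.2, 23.3 and 14.3 FPKM in GSH and 3.74, 3.37 and 2.96 FPKM in Glu (log2 fold change 1.93 ± 0.22, adjusted p = 0.027). Both genes were above mock in all libraries of both treatments, so GSH and Glu libraries stood on the same side of mock and GSH further from it.

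*LTP2* (*AT2G38530*), a lipid transfer protein of the cuticle-bearing epidermis, had 6.24, 10.13 and 6.43 FPKM in GSH, against 1.42, 1.59 and 0.983 FPKM in Glu. Mock libraries lay between the treatments, at 2.42 to 4.53 FPKM, so that every GSH library was above and every Glu library below all mock libraries. The log2 fold change was 1.86 ± 0.19 (adjusted p = 0.020). For *LTP2*, *AT2G43620* and *ATBFRUCT1* the 3 GSH libraries were also above all 12 other libraries of the series, wounding included, and no other called gene had GSH libraries outside that range.

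A pair of called genes with smaller changes belong to signaling. *AT1G18210*, a calcium-binding EF-hand protein, had 53.8, 61.0 and 51.6 FPKM in GSH and 30.4, 30.8 and 28.6 FPKM in Glu, with 16.2 to 19.4 FPKM in mock libraries (log2 fold change 0.86 ± 0.09, adjusted p = 0.020). *JAZ10*, a repressor of JA responses, had 8.86, 8.91 and 9.28 FPKM in GSH, against 4.27, 5.14 and 4.88 FPKM in Glu and 0.470 to 0.787 FPKM in mock libraries (log2 fold change 0.80 ± 0.10, adjusted p = 0.041). In both genes the spread within each treatment was far smaller than the gap between them. Both overlap another annotated gene.

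*AT1G75945*, which encodes an uncharacterized protein (chromosome 1, 28515245 to 28515916, minus strand), had an adjusted p of 0.00020. It had 5.61, 6.90 and 5.80 FPKM in GSH, and it was listed at 0 in all 3 Glu libraries. The gene was detected in each of the 12 libraries outside the Glu group, at 5.61 to 9.24 FPKM, so the Glu libraries stood apart from the rest.

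All 7 called genes that were lower in GSH showed the same arrangement, with every Glu library above all 12 other libraries of the series. *QQS* (*AT3G30720*), an orphan gene that affects starch content, had 2.63, 7.99 and 6.60 FPKM in GSH and 40.6, 31.7 and 48.0 FPKM in Glu, and the highest value outside the Glu group was 7.99 FPKM. Its log2 fold change was -2.69 ± 0.31 (adjusted p = 0.027). *LURP1* (*AT2G14560*), known for its part in resistance to downy mildew, had 12.7, 15.2 and 14.0 FPKM in GSH, against 34.4, 26.6 and 42.0 FPKM in Glu and 13.8 to 21.7 FPKM in mock libraries (log2 fold change -1.22 ± 0.15, adjusted p = 0.041). *ACL* (*AT2G23600*), annotated as an acetone-cyanohydrin lyase, had 30.5, 30.2 and 28.3 FPKM in GSH and 47.3, 44.4 and 47.6 FPKM in Glu (log2 fold change -0.63 ± 0.07, adjusted p = 0.029).

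The other 4 of these genes were *MRD1* and 3 that are not protein-coding, a class that makes up 2.87% of genes tested. *AT2G05995*, a non-coding RNA on chromosome 2, had 0.142, 0.177 and 0.411 FPKM in GSH and 3.75, 4.99 and 3.56 FPKM in Glu (log2 fold change -2.03 ± 0.17, adjusted p = 0.0054). No library outside the Glu group was above 1.04 FPKM. *AT3G06355*, a long non-coding RNA, had 8.85, 9.69 and 7.76 FPKM in GSH and 24.0, 29.8 and 19.9 FPKM in Glu (log2 fold change -1.38 ± 0.15, adjusted p = 0.022). *AT3G06355* overlaps *AT3G41979*, a 5.8S ribosomal RNA gene, and its value is uncertain for that reason.

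**Figure D2:**
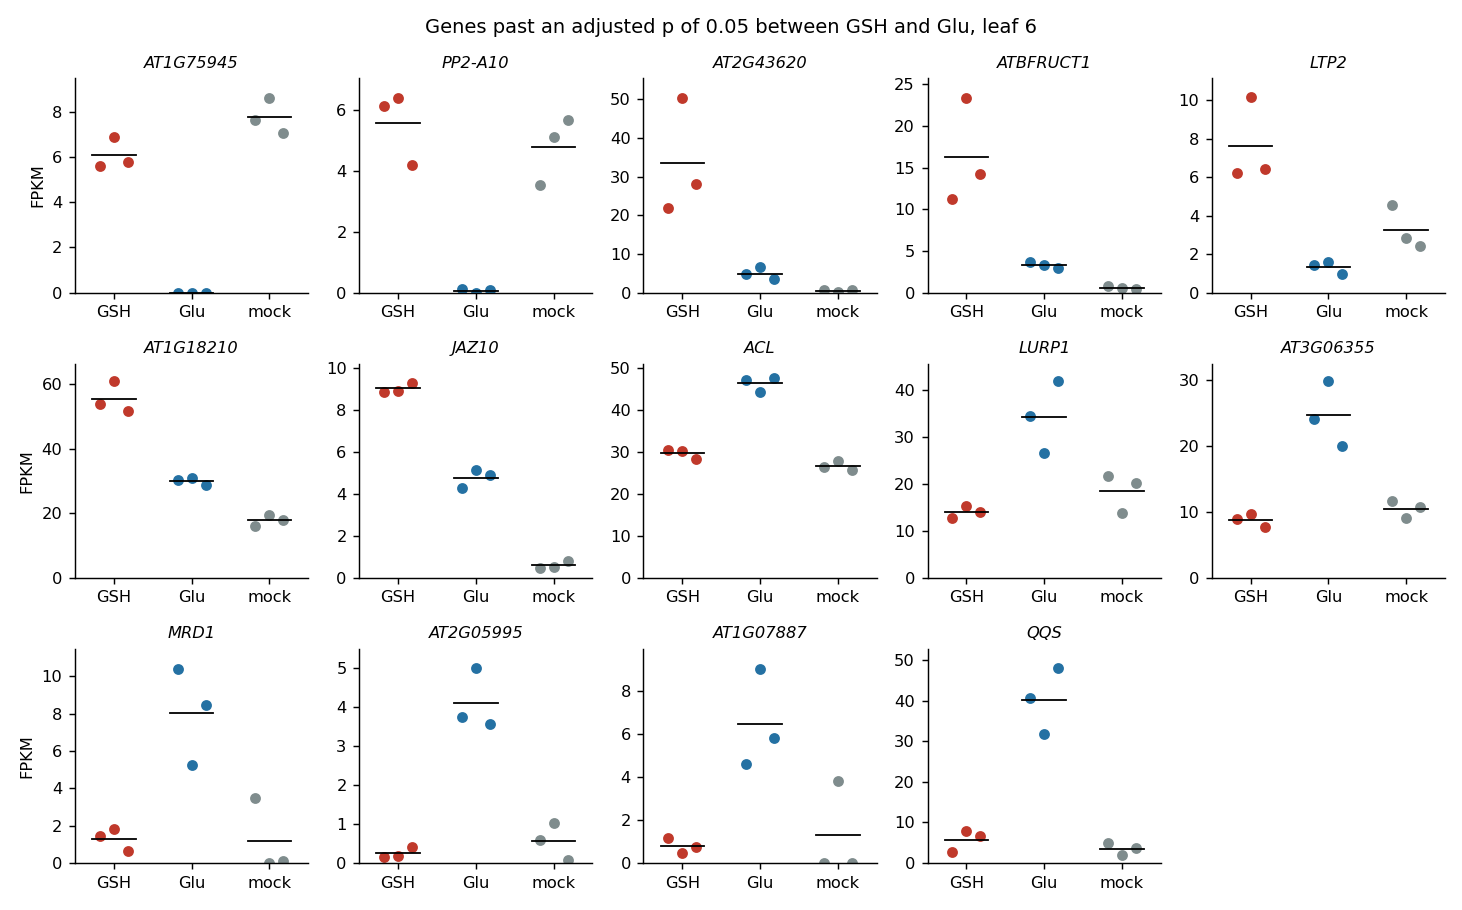
FPKM of the 14 called genes in each GSH, Glu and mock library (points) with the group mean (line, n = 3), ordered from the largest positive to the largest negative log2 fold change. In the 7 genes from *ACL* to *QQS* the Glu libraries were above all GSH and all mock libraries.

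Overlapping genes needed separate attention. Of the 14 called genes 6 overlap another annotated gene, against 33.9% of genes tested, and the setting of the authors' counting for strand is not given in the sources used here. *PP2-A10* (*AT1G10155*, a phloem protein, chromosome 1, 3325825 to 3328448, minus strand) had 6.12, 6.38 and 4.205 FPKM in GSH, and 0.110, 0 and 0.0777 FPKM in Glu (adjusted p = 0.0012). *AT1G10150*, a carbohydrate-binding protein on the plus strand (3325799 to 3327614), shares 1790 bases with it and went the other way. It had 0, 0 and 1.89 FPKM in GSH and 7.99, 8.38 and 7.96 FPKM in Glu (adjusted p = 0.063, and 0.032 without GSH replicate 1). A like exchange occurred within the wounding mock group, where replicate 2 had 5.30 FPKM of *PP2-A10* and 1.53 FPKM of *AT1G10150*, whereas wounding mock replicates 1 and 3 had 0 FPKM of *PP2-A10* and 8.97 and 7.69 FPKM of *AT1G10150*. How fragments were shared between the overlapping genes was not tested, and the values of either gene alone are uncertain.

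*MRD1* (*AT1G53480*, minus strand) and the long non-coding RNA *AT1G07887* (plus strand) cover the same stretch of chromosome 1, with 1039 bases in common, and moved together. *AT1G07887* had 1.15, 0.480 and 0.719 FPKM in GSH and 4.61, 9.03 and 5.79 FPKM in Glu (log2 fold change -2.04 ± 0.23, adjusted p = 0.027). *MRD1* had 1.44, 1.81 and 0.660 FPKM in GSH and 10.4, 5.25 and 8.45 FPKM in Glu (log2 fold change -1.96 ± 0.26, adjusted p = 0.049). Within Glu the library with the most *AT1G07887* had the least *MRD1*. Their values cannot be fully told apart. When genes that overlap another gene were left out before the fit, an alternative chosen after seeing the data, 7 DEGs and 8 called genes remained.

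**Figure D3:**
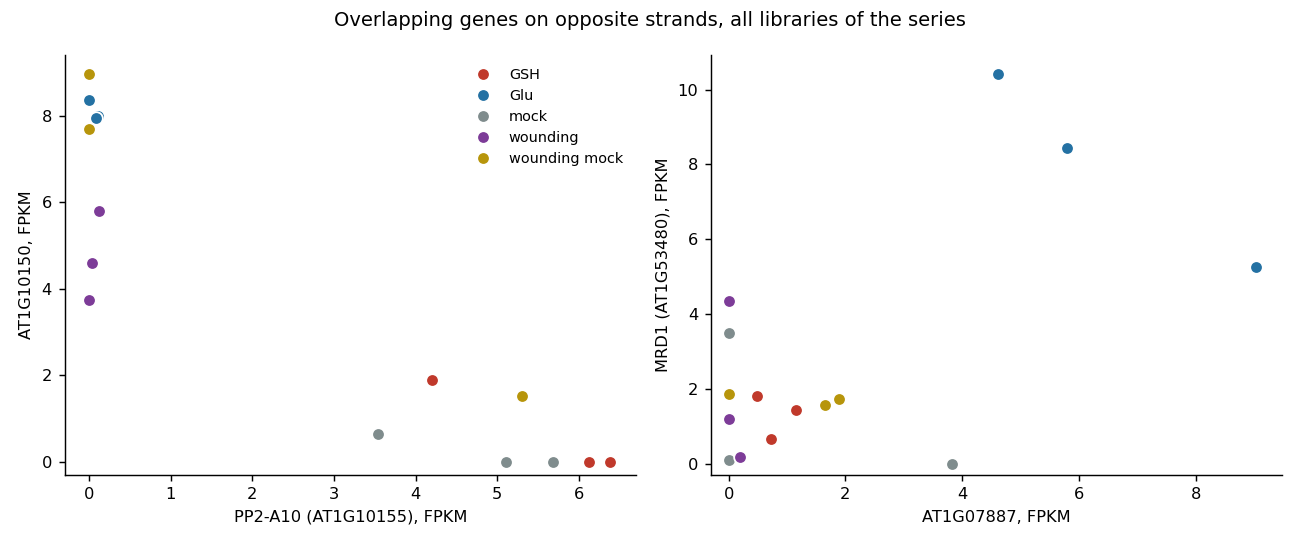
FPKM of 2 pairs of overlapping genes on opposite strands, 1 point for each of the 15 libraries, coloured by group. Left, libraries with over 3 FPKM of *PP2-A10* had at most 1.89 FPKM of *AT1G10150*, and right, the 3 Glu libraries were the highest of the 15 in both *MRD1* and *AT1G07887*.

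JA signaling leaned to GSH in its repressors. Of 13 *JAZ* genes 11 were tested, and 10 had a log2 fold change above 0 (64.2% of all genes did). The median was 0.31, against 0.05 over all genes tested. One of them, *JAZ10*, passed the adjusted p, 6 of 11 had an unadjusted p under 0.05 and were higher in GSH (54.5%, against 6.42% of all genes), and none was lower at that level. In 6 of 11 the groups did not overlap, against 11% of all genes in that direction, and in each of these 6 all GSH libraries were above mock. JA lists were chosen knowing that these genes respond to both compounds, so their direction is a description.

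*JAZ7* and *JAZ13* had the largest log2 fold changes of the family, and their promoters are shown because MYC2 and related factors are known to bind the G-box, CACGTG. The 250 bases before each start (RefSeq, TAIR10.1, chr2:14572780-14573029 plus strand for *JAZ7* and chr3:7879811-7880060 minus strand for *JAZ13*) hold 1 G-box each, in capitals.
JAZ7: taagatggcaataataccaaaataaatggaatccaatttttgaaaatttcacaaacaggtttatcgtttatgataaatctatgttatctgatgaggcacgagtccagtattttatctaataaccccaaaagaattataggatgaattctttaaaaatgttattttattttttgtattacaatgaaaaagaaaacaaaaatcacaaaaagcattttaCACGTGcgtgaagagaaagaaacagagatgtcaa
JAZ13: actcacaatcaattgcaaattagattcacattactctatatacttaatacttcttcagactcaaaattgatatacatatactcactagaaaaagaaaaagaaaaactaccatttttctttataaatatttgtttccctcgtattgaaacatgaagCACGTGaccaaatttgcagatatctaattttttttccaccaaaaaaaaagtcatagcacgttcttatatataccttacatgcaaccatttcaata
The motif was searched as CACGTG, which reads the same on both strands, and it was found in 6.49% of 27443 windows of the same length before protein-coding genes and in 5 of 13 windows of *JAZ* genes. The window of *JAZ10*, the called member, held 0. A match describes the letters only.

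*JAZ7* had 4.86, 3.74 and 3.31 FPKM in GSH, against 1.73, 2.15 and 0.946 FPKM in Glu and 0 to 0.226 FPKM in mock libraries (log2 fold change 0.95, 95% interval 0.49 to 1.4, adjusted p = 0.23). *JAZ13*, which entered the test only through its GSH libraries, had 3.08, 1.92 and 2.34 FPKM in GSH and 0.859, 0.751 and 0.566 FPKM in Glu (0.99, interval 0.61 to 1.37, adjusted p = 0.12). For both, every GSH library was above every Glu library, at low levels. The more abundant *JAZ6* had 59.0, 58.2 and 50.7 FPKM in GSH and 37.0, 40.7 and 36.2 FPKM in Glu (log2 fold change 0.55, adjusted p = 0.096). *JAZ5* had 15.3, 13.3 and 12.3 FPKM in GSH and 8.78, 7.40 and 10.3 FPKM in Glu (log2 fold change 0.58, adjusted p = 0.27). The groups overlapped in *JAZ12*, with 86.4, 93.0 and 74.8 FPKM in GSH and 88.3, 92.4 and 84.2 FPKM in Glu (-0.06, interval -0.28 to 0.15).

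Enzymes that inactivate JA showed the same lean. All 7 tested genes of JA turnover had log2 fold changes above 0 (64.2% of all genes did). They ranged from 0.21 to 0.69 with a median of 0.39, although none passed the adjusted p. An unadjusted p under 0.05 was reached by 4 of 7, all higher in GSH (57.1%, against 6.42% of all genes). *IAR3*, an amidohydrolase that cleaves the active conjugate, had 33.2, 44.4 and 36.5 FPKM in GSH, against 27.5, 28.1 and 25.4 FPKM in Glu and 9.96 to 10.2 FPKM in mock libraries (log2 fold change 0.47, adjusted p = 0.29). *CYP94C1*, a cytochrome P450 that oxidizes the conjugate, had 3.22, 3.17 and 2.13 FPKM in GSH and 2.15, 1.88 and 1.49 FPKM in Glu, and its groups overlapped (log2 fold change 0.43, adjusted p = 0.52).

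JA biosynthesis had a median of 0.07 over 13 genes, and none passed the adjusted p. An unadjusted p under 0.05 was reached by 3 of 13 that were higher in GSH (23.1%, against 6.42% of all genes). It was also reached by 1 that was lower (7.69%, against 2.35%). Among the 3 was the lipoxygenase *LOX4*, with 8.04, 11.9 and 10.7 FPKM in GSH and 8.34, 6.57 and 8.14 FPKM in Glu (0.36, adjusted p = 0.55). *OPR3*, a reductase of the pathway, had 152, 171 and 155 FPKM in GSH, against 144, 157 and 125 FPKM in Glu and 51.3 to 57.0 FPKM in mock libraries. Its difference of 0.17 had an interval of -0.06 to 0.39, which includes 0. *AOS*, the allene oxide synthase, had 371, 295 and 285 FPKM in GSH and 371, 314 and 412 FPKM in Glu (-0.21, interval -0.50 to 0.09). *AOC3*, an allene oxide cyclase, differed between GSH libraries, with 3.66, 14.5 and 9.49 FPKM in GSH and 3.69, 3.98 and 2.28 FPKM in Glu. Its adjusted p was 0.48 with all libraries and 0.026 without GSH replicate 1, the library at the level of Glu.

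Output genes of the pathway pointed in both directions. *VSP2*, a vegetative storage protein, had 3365, 2118 and 2442 FPKM in GSH and 3605, 3733 and 3686 FPKM in Glu (log2 fold change -0.50, adjusted p = 0.43), and the adjusted p was 0.010 without GSH replicate 1. *TAT3*, a tyrosine aminotransferase, had 21.8, 65.2 and 37.6 FPKM in GSH and 18.8, 23.9 and 15.2 FPKM in Glu (log2 fold change 0.95, adjusted p = 0.48). *MYC2*, the transcription factor itself, spanned 2.03 to 16.8 FPKM in GSH and 0 to 3.41 FPKM in Glu, a spread too wide to place it. Of 8 output genes tested, 4 had a log2 fold change above 0, against 64.2% of all genes.

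Iron deficiency genes leaned to GSH. All 13 tested genes were higher on the log2 scale (64.2% of all genes were), with a median of 1.3 and a range of 0.04 to 2.74. In 11 of 13 the groups did not overlap (11% of all genes in that direction). The unadjusted p was under 0.05 in 11 of 13 (84.6%, against 6.42% of all genes in that direction), yet none passed the adjusted p. The spread within GSH was wide, since GSH replicate 1 was the highest of the 6 libraries in 12 of 13. Plants read their iron status through basic helix-loop-helix (bHLH) factors of the Ib group, *bHLH38*, *bHLH39*, *bHLH100* and *bHLH101*, which switch on iron uptake and transport.

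*bHLH100* had 99.5, 40.4 and 24.7 FPKM in GSH, against 6.81, 9.95 and 3.21 FPKM in Glu and 1.17 to 6.28 FPKM in mock libraries, with a log2 fold change of 2.74 ± 0.49 and an adjusted p of 0.15. *bHLH38* had 69.7, 16.2 and 11.2 FPKM in GSH, against 3.27, 5.91 and 2.52 FPKM in Glu and 1.04 to 1.64 FPKM in mock libraries (2.39 ± 0.57, adjusted p = 0.30). The lowest GSH library was above the highest Glu library for both. Without GSH replicate 1, *bHLH100* had a log2 fold change of 2.2 with an adjusted p of 0.044, and *bHLH38* one of 1.63 with an adjusted p of 0.046. The median of the list was then 0.73, beside 0.74 for chitinases, lectins and protease inhibitors in the same fit. In that fit 13 of 13 iron deficiency genes were above 0, against 65.8% of all genes. *bHLH39* had 39.4, 13.5 and 11.6 FPKM in GSH and 4.85, 6.42 and 2.04 FPKM in Glu (log2 fold change 1.94, adjusted p = 0.28).

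The 250 bases before these genes are shown because the G-box is a known binding motif of bHLH factors in general. The windows of *bHLH38* (RefSeq, TAIR10.1, chr3:21085246-21085495, minus strand) and *bHLH100* (chr2:17199455-17199704, minus strand) hold 1 each, in capitals.
bHLH38: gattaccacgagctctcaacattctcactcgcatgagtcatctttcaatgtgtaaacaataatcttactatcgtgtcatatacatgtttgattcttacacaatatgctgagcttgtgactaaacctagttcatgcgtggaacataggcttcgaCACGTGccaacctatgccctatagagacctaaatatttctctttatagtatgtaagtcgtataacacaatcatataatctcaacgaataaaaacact
bHLH100: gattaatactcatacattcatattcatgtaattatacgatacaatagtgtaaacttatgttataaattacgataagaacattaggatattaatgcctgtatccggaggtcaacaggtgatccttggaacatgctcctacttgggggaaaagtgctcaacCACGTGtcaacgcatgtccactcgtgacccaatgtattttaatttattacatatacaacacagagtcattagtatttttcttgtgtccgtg
In the iron deficiency list 4 of 19 windows held the motif. The first base of the motif lies 97 bases before the start of *bHLH38* and 91 bases before that of *bHLH100*. It lies 95 bases before that of *JAZ13* and 34 bases before that of *JAZ7*.

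The level of these genes also varied without either compound. *bHLH100* had 0.510, 40.6 and 36.3 FPKM in the 3 wounding mock libraries, so 2 of them were within the range of GSH. *bHLH38* had 0.252, 18.9 and 16.0 FPKM there. In *FRO3* the same libraries had 6.76, 36.2 and 38.1 FPKM. What set the level in those libraries was not tested.

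Genes downstream and beside these factors had smaller differences. *FRO3*, a ferric reductase, had 72.7, 33.9 and 21.2 FPKM in GSH and 14.8, 17.44 and 12.002 FPKM in Glu (log2 fold change 1.3, adjusted p = 0.37). *BTS*, a ubiquitin ligase that restrains the response, had 189.9, 99.8 and 73.9 FPKM in GSH and 60.9, 64.2 and 54.4 FPKM in Glu (0.90, adjusted p = 0.43), and *OPT3*, a transporter of the phloem, had 155, 97.4 and 73.1 FPKM in GSH and 69.8, 72.7 and 62.5 FPKM in Glu (0.59, adjusted p = 0.53). *AT1G47400*, which RefSeq lists as uncharacterized and which stands in the iron deficiency list, had 62.1, 14.6 and 11.1 FPKM in GSH and 6.98, 8.91 and 3.16 FPKM in Glu (1.72, adjusted p = 0.46). Every GSH library was above every Glu library in these 4 genes, and mock libraries overlapped Glu libraries in all 4.

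A pair of long non-coding RNAs lie on chromosome 1 next to *AT1G47400*, which ends at 17386485. *AT1G07367* starts 2503 bases after it (17388989 to 17389500, plus strand) and had 10.2, 3.56 and 2.00 FPKM in GSH and 0.234, 0.342 and 0.232 FPKM in Glu (log2 fold change 2.08, adjusted p = 0.18). *AT1G07373* (17392374 to 17393026, minus strand) had 10.9, 3.05 and 2.41 FPKM in GSH and 0.480, 0.914 and 0.294 FPKM in Glu (1.83, adjusted p = 0.27). No Glu library reached 1 FPKM in either, so both entered the test only through the GSH libraries, where they were high. They had the same order of GSH libraries as the iron genes. In the fit that omitted GSH replicate 1 the adjusted p was 0.026 for *AT1G07367* and 0.046 for *AT1G07373*, with the same limit.

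Ferritin transcripts, which encode the iron store of the plastid, were low in 1 GSH library. *FER1*, a ferritin, had 7.99 FPKM in GSH replicate 1, against 43.0 and 44.9 FPKM in the other GSH libraries and 41.7, 53.9 and 25.9 FPKM in Glu. *FER4* likewise had 7.04 FPKM there, 21.9 and 23.1 FPKM in the other GSH libraries and 20.6, 19.3 and 22.2 FPKM in Glu. The median of 5 tested genes was -0.40, and 0.05 without GSH replicate 1.

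Heat shock genes also depended on that library. *HSP70* (*AT3G12580*) had 4.30 FPKM in GSH replicate 1, 75.6 and 52.2 FPKM in GSH replicates 2 and 3, 17.95, 18.1 and 14.4 FPKM in Glu, and 8.99 to 10.2 FPKM in mock libraries. *HSP90.1* had 4.75, 52.0 and 32.9 FPKM in GSH and 10.9, 10.8 and 8.07 FPKM in Glu. GSH replicates 2 and 3 were thus above Glu, and replicate 1 below mock, for both chaperones. The median log2 fold change of 11 tested members was 0.16, and 0.50 without GSH replicate 1, when *HSP70* and *HSP90.1* passed with adjusted p-values of 0.0054 and 0.0070. Replicate 1 was the lowest of the 6 libraries in 9 of 11.

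**Figure D4:**
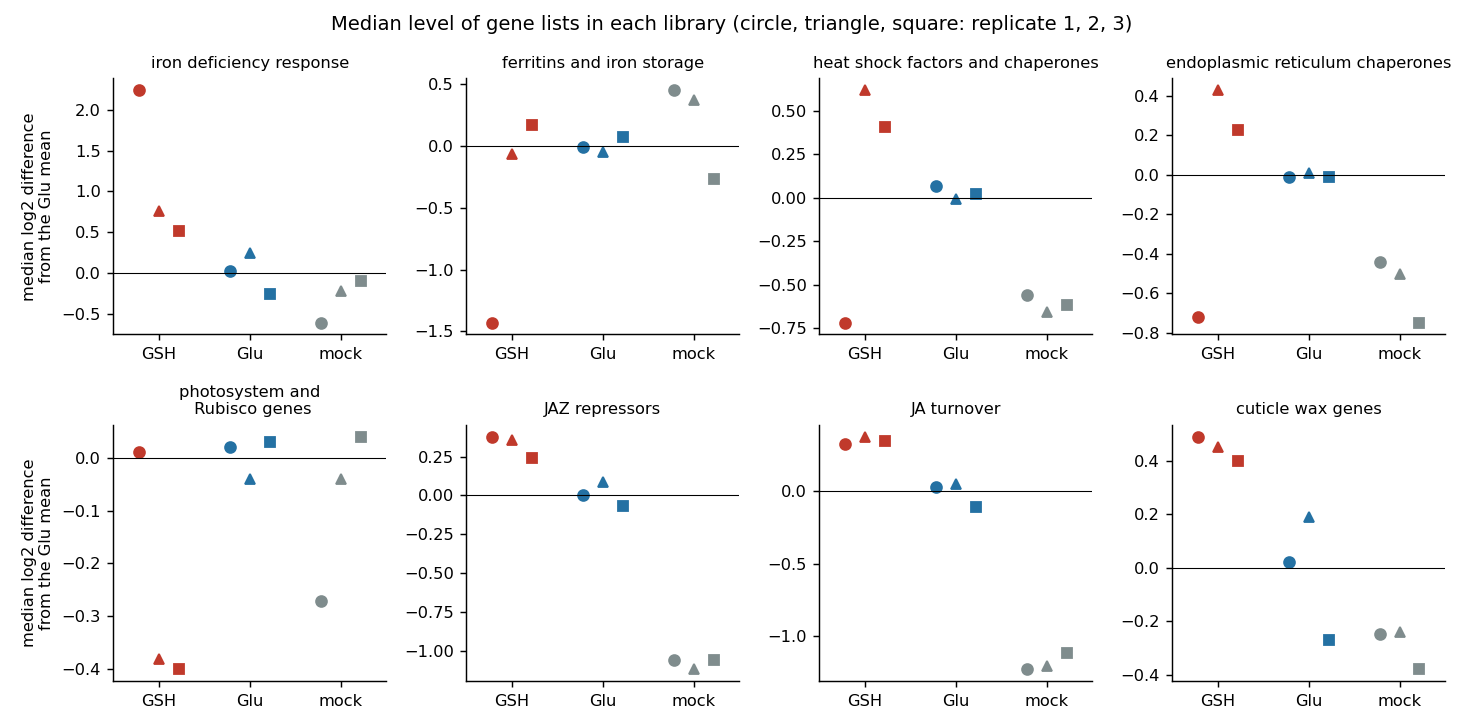
Median log2 difference from the Glu mean over the tested genes of 8 lists (y axis, log2 units) in each GSH, Glu and mock library, with symbols for the replicate. GSH replicate 1 (circle) was apart from the other GSH libraries in iron deficiency (2.24), iron storage (-1.43), heat shock (-0.72) and endoplasmic reticulum chaperones (-0.72). It was also apart in photosystem genes (0.01, against -0.38 and -0.40), but not in *JAZ* (0.38), JA turnover (0.33) or wax (0.49).

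All light-harvesting genes listed leaned to Glu. The members of their list that lay above 0 were *RBCS1A*, *RBCS1B*, *RBCS2B*, *RBCS3B* and *RCA*. Of 21 tested nuclear photosystem and Rubisco genes 16 had a log2 fold change below 0 (35.8% of all genes did), the median was -0.27, and 6 had an unadjusted p under 0.05 and were lower in GSH (28.6%, against 2.35% of all genes). *LHCB4.2*, an antenna protein of photosystem II, had 1025, 651 and 647 FPKM in GSH and 1062, 1071 and 1032 FPKM in Glu (log2 fold change -0.48, adjusted p = 0.48). *LHCB2.1* had 503, 289 and 291 FPKM in GSH and 500.3, 472 and 531 FPKM in Glu (-0.52, adjusted p = 0.51). In both, GSH replicate 1 was at or near the level of Glu and the other 2 GSH libraries were below it. Without replicate 1, 10 of 21 passed the adjusted p, all lower in GSH, against 0.619% of genes called in either direction in that fit, and the median was -0.35. The Rubisco small subunit *RBCS1A* had 10162 ± 192 FPKM in GSH and 9526 ± 1495 FPKM in Glu (SD, n = 3 each), and its groups overlapped. Outside the list, the antenna gene *LHB1B2* lay the other way, with 3487, 2762 and 2534 FPKM in GSH and 2346, 1012 and 2515 FPKM in Glu (0.68, adjusted p = 0.59). It overlaps *AT2G08665* on the opposite strand, which was lower in GSH (-1.11, adjusted p = 0.15, and 0.0082 without GSH replicate 1). The values of either gene alone are uncertain. *CAT3*, a catalase, had 1192, 1458 and 1484 FPKM in GSH, against 2304, 2224 and 2238 FPKM in Glu and 1953 to 2275 FPKM in mock libraries (-0.72 ± 0.10, adjusted p = 0.063), and its adjusted p was 0.0070 without GSH replicate 1.

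Nuclear genes for proteins of the plastid RNA polymerase, a list added after their values were seen, lay the other way. Of 20 tested, 16 were above 0 (64.2% of all genes were) with a median of 0.17, and in 12 the groups did not overlap in that direction (11% of all genes). *PTAC12* had 45.4, 46.8 and 47.9 FPKM in GSH, against 31.8, 30.8 and 34.2 FPKM in Glu and 45.3 to 69.9 FPKM in mock libraries (0.52 ± 0.07, adjusted p = 0.063). *FLN1*, a fructokinase-like protein of the polymerase complex, had 54.2, 49.3 and 52.1 FPKM in GSH, against 38.0, 37.5 and 38.1 FPKM in Glu and 48.7 to 72.9 FPKM in mock libraries (0.44, adjusted p = 0.096). For both, Glu libraries were below all mock libraries. In the fit lacking GSH replicate 1, *PTAC12* passed at an adjusted p of 0.033 and *FLN1* did not (0.065). Genes of the chloroplast genome itself had a median of 0.08 over 59 tested.

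Cuticle wax and cytokinin lists had medians above 0 without a call. The 8 tested cuticle wax genes had log2 fold changes of 0.00 to 0.90 with a median of 0.47. An unadjusted p under 0.05 with higher values in GSH was found in 5 of 8 (62.5%, against 6.42% of all genes). *CER3*, which takes part in making alkanes, had 31.4, 25.8 and 27.1 FPKM in GSH, against 19.2, 20.6 and 20.6 FPKM in Glu and 20.8 to 22.7 FPKM in mock libraries (0.46, adjusted p = 0.21). *WSD1*, a wax ester synthase, had 4.35, 4.05 and 3.96 FPKM in GSH and 2.02, 2.79 and 1.36 FPKM in Glu (0.77, adjusted p = 0.27). All 7 tested cytokinin response regulators of the A type were above 0 (64.2% of all genes were), with a median of 0.29. Of these, *ARR16* was under 1 FPKM in every Glu library, so it entered the test only through the GSH libraries, where it was high. The regulator *ARR7* had 15.04, 20.2 and 21.7 FPKM in GSH and 13.0, 13.2 and 9.13 FPKM in Glu (0.65, adjusted p = 0.35). Mock libraries had 11.3 to 17.2 FPKM of *ARR7* and overlapped both groups. Relative to the Glu mean, the median of the cytokinin list was 0.26 to 0.33 in GSH libraries and 0.12 to 0.46 in mock libraries. The groups did not overlap in 4 of its genes, and in 1 of these all GSH libraries were above mock. Response regulators of the A type are early cytokinin targets.

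Gibberellin genes had a median of 0.23 over 12 tested, and 0.11 without GSH replicate 1, when *GASA6* passed at an adjusted p of 0.030. *GA3OX1*, which makes active gibberellin, had 2.55, 2.98 and 3.27 FPKM in GSH, against 1.35, 1.44 and 0.815 FPKM in Glu and 2.00 to 3.56 FPKM in mock libraries (0.85, adjusted p = 0.17). Glu libraries were below mock and GSH libraries within its range. In *EXPA10*, an expansin that loosens cell walls, Glu libraries were also below mock and GSH libraries overlapped it, with 66.1, 62.5 and 84.3 FPKM in GSH, against 45.3, 44.0 and 51.2 FPKM in Glu and 77.0 to 113 FPKM in mock libraries (0.58, adjusted p = 0.21). Of 18 tested expansins and xyloglucan endotransglucosylases 15 were above 0 (64.2% of all genes were), with a median of 0.17.

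Pathways of the compounds themselves differed little. Of 17 genes of glutathione synthesis, recycling and breakdown 11 were above 0, near the share of all genes (64.2%). The median was 0.04 and none passed the adjusted p. *PAD2* (*GSH1*, *AT4G23100*), the enzyme that joins glutamate and cysteine, had 80.8, 100.5 and 104 FPKM in GSH and 94.9, 96.0 and 87.6 FPKM in Glu (0.03, interval -0.21 to 0.26). The median of 19 genes of glutamate and ammonium assimilation was 0.06, and none of them reached an unadjusted p under 0.05. *GLR3.3* had 10.9, 9.55 and 9.14 FPKM in GSH and 9.43, 9.44 and 8.51 FPKM in Glu (0.10, interval -0.13 to 0.33), and *GLR3.6* had 4.12, 3.36 and 3.08 FPKM in GSH and 2.82, 2.71 and 3.66 FPKM in Glu (0.16, interval -0.17 to 0.48). The intervals of these 3 genes include differences of up to 0.48.

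Sulfate assimilation leaned to Glu, with 16 of 22 tested genes below 0 (35.8% of all genes were) and a median of -0.21. *SULTR2;1*, a sulfate transporter of the vasculature, had 82.7, 75.1 and 78.3 FPKM in GSH and 104, 112 and 89.0 FPKM in Glu (-0.36, adjusted p = 0.35). *APS4*, an ATP sulfurylase, had 17.99, 22.8 and 20.9 FPKM in GSH and 28.2, 31.3 and 22.9 FPKM in Glu (-0.40, adjusted p = 0.45), whereas *APS2* of the same family had 50.4, 52.9 and 54.5 FPKM in GSH and 43.6, 40.2 and 45.9 FPKM in Glu (0.28, adjusted p = 0.37). Glutathione S-transferases were mixed, with a median of 0.08 over 22, and the 4 at an unadjusted p under 0.05 were all higher in GSH. *GSTU17* had 10.4, 14.3 and 13.6 FPKM in GSH and 8.10, 7.31 and 6.32 FPKM in Glu (0.73, adjusted p = 0.17). With GSH replicate 1 left out, *GSTU17* passed at an adjusted p of 0.026, and 2 of 22 transferases were called (9.09%, against 0.619% of all genes). An unadjusted p under 0.05 with higher values in GSH was then found for 9 of 22, against 1623 of all 16953 genes. In that fit 10 of 22 sulfate assimilation genes had an unadjusted p under 0.05 and lower values in GSH, against 516 of 16953 genes. With all libraries 3 of 22 did (13.6%, against 2.35% of all genes), and none was called in either fit.

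The remaining lists had medians within 0.20 of 0 and at most 3 members at an unadjusted p under 0.05 in either direction, apart from chitinases, lectins and protease inhibitors with a median of 0.34. With GSH replicate 1 left out, endoplasmic reticulum chaperones had a median of 0.33, against -0.04 with all libraries. Of 6 tested, 5 had an unadjusted p under 0.05 and higher values in GSH, against 1623 of all 16953 genes in that fit. Early auxin genes then had a median of 0.32 over 7, ZAT and AZF repressors 0.38 over 3, and chitinases, lectins and protease inhibitors 0.74 over 6. With all libraries, salicylic acid genes had a median of -0.12 over 14, abscisic acid genes -0.09 over 19, clock genes -0.07 over 16, stress AP2/ERF factors -0.18 over 11 and stress WRKY factors 0.06 over 13. Phosphate genes, also added after their values were seen, had a median of 0.01, but *SPX1*, a phosphate sensor protein, had 8.13, 10.3 and 7.06 FPKM in GSH and 15.9, 16.1 and 16.2 FPKM in Glu (-0.86 ± 0.13, adjusted p = 0.063), and passed at 0.049 without GSH replicate 1.

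**Figure D5:**
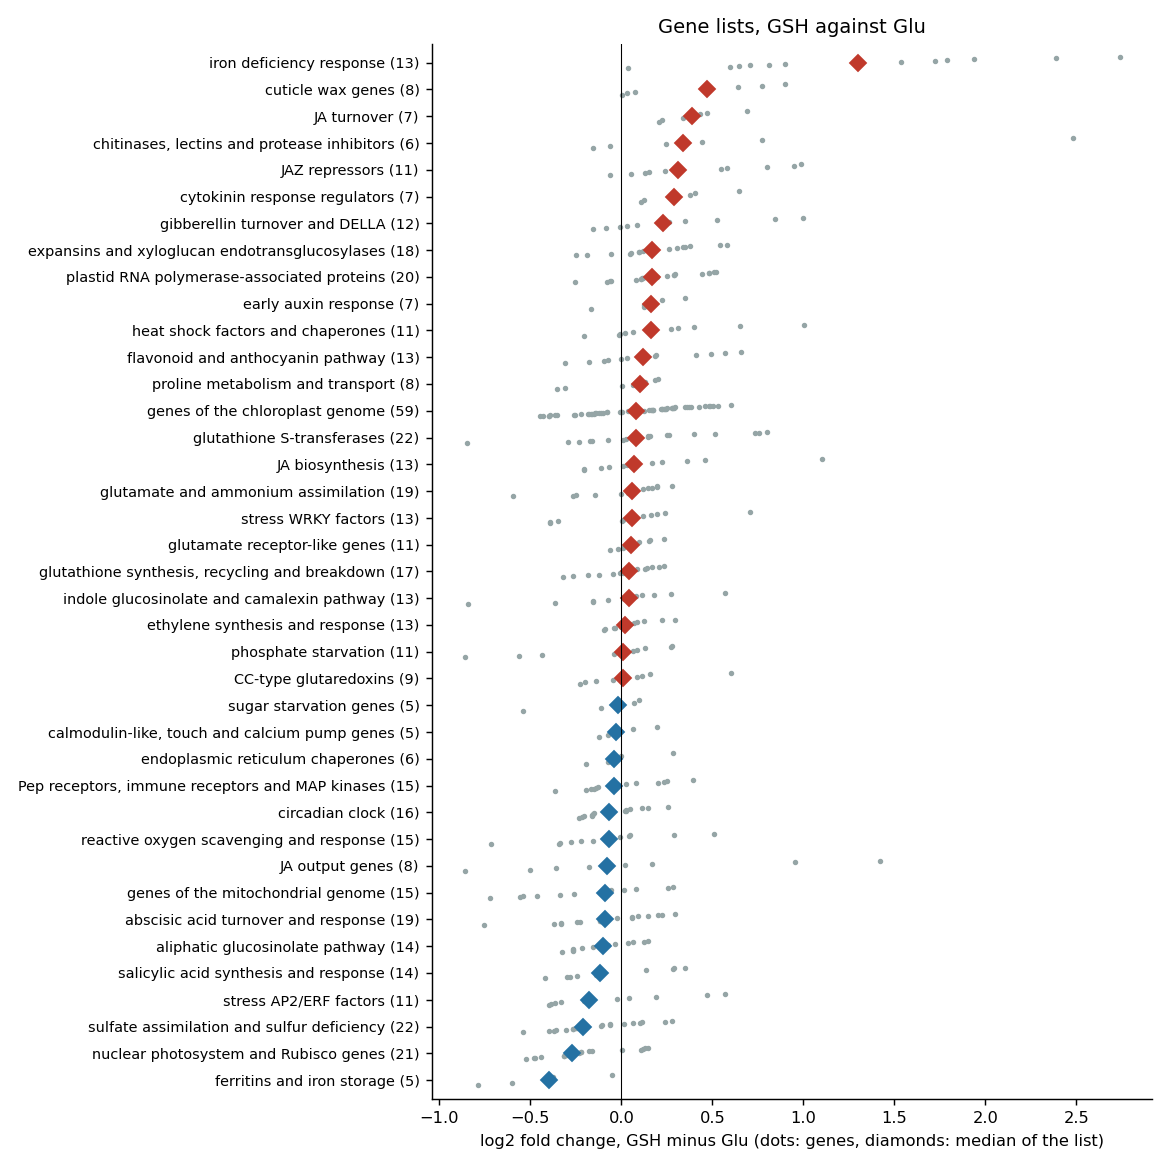
Log2 fold change, GSH minus Glu, of the tested genes (dots) in each list with at least 5 of them, and the median of each list (diamonds), with the number tested in brackets. With all 6 libraries, iron deficiency (1.3), wax (0.47) and JA turnover (0.39) had the highest medians, and ferritins (-0.40) and photosystem genes (-0.27) the lowest.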

How the data were processed

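Leaf 6 was sequenced in 15 libraries, of which 3 GSH and 3 Glu libraries were compared. Per the labels and the study's methods, the authors trimmed reads with cutadapt and Trimmomatic, aligned them with HISAT2 to TAIR10 and quantified genes with StringTie, and their own DEGs came from DESeq2 1.16.1. The deposited FPKM values are named as counts but are not whole numbers and show no whole-read steps, so depth is unknown, low values have unknown precision, and no count test was run. Strand settings are not given in the sources used here.

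Values were used as log2(FPKM + 1) for genes that 3 or more of the compared libraries held at 1 FPKM or above, without rescaling. Groups were compared with limma 3.58.1 in R 4.3.3 with a variance trend, and p-values were adjusted by the Benjamini-Hochberg method over 16953 genes. Only 1 pair of compounds was compared. A fold change is on the log2(FPKM + 1) scale, which understates the change of low genes. Sums of markers were compared by an exact permutation test. Names, positions and overlaps were taken from RefSeq for TAIR10.1, in which 99.1% of the IDs were found, and the promoter windows hold 250 bases. The test was tried on simulated data.

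Genes could be named if they were DEGs, if they had 1 of the 10 largest log2 fold changes in either direction among genes with an unadjusted p under 0.05, no overlap between groups and a mean of at least 1 FPKM in the higher group, if they were among the 3 members of a list with the smallest p, or if the study measured them by qRT-PCR, with PAD2, GLR3.3 and GLR3.6 added. Not all genes that met these rules are described, AT1G24147 and TPS03 among those left out. Other genes named, among them AT1G18210, ACL, FRO3, BTS and OPT3, were chosen after their values were seen. The 36 functional lists came from textbook knowledge, and 2 more were added after the values were seen. The members, lists and rules were chosen with earlier results of these data known. Alternatives in pseudocount, filter, scaling, libraries, variance trend and replicate block were run.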

Additional observations from a re-analysis of the deposited data

How the results depend on the processing

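Depth is unknown for these FPKM values, so the precision of low values is not known. Of 11 DEGs (5 higher, 6 lower) and 14 genes past the adjusted p (7 higher, 7 lower), the counts changed as follows. Without a filter 1 DEG was left (1 higher, 0 lower), and 1 gene passed the adjusted p (1 higher, 0 lower). With 1 FPKM required in all 6 libraries there were 4 DEGs (2 higher, 2 lower) and 6 genes (3 higher, 3 lower). Without a variance trend there were 4 DEGs (3 higher, 1 lower) and 4 genes (3 higher, 1 lower). A fit of mock, GSH and Glu libraries gave 21 genes (12 higher, 9 lower), and a fit of all 15 gave 12 genes (9 higher, 3 lower) with 3 lower DEGs. Leaving out overlapping genes, chosen after seeing the data, gave 7 DEGs (3 lower) and 8 genes (4 higher, 4 lower). Leaving out 1 library in turn gave 2 to 33 DEGs (2 to 19 higher, 0 to 14 lower) and 2 to 105 genes (2 to 59 higher, 0 to 46 lower), with the most without GSH replicate 1 and the fewest without Glu replicate 1. Across the same 6 fits the median log2 fold change was 0.23 to 0.43 for *JAZ* genes, 0.11 to 0.29 for gibberellin genes and -0.17 to 0.50 for heat shock genes. With a pseudocount of 0.1 the JA turnover median was 0.48. *AT1G75945* passed in all 15 of its alternatives, and *PP2-A10* in 12 of 14. Log2 fold changes that reversed sign were those of *PAD2* (*GSH1*), at -0.03 with median of ratios scaling and -0.04 to 0.14 over the fits without 1 library, *JAZ12* -0.13 to 0.02, *FER1* -1.0 to 0.17, *FER4* -0.67 to 0.12, *RBCS1A* -0.01 to 0.22 and *HSP70* -0.08 to 1.85. The cause of these changes was not tested.

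With the replicate number as a block, 9 genes passed (6 higher, 3 lower) and 3 DEGs were lower in GSH. Of the 6 libraries, 2 correlated best with the library of their own number in the other group. Whether the same number marks a shared batch was not tested, and so few libraries could not decide it.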
